A study of Arabidopsis thaliana with 6 samples.

Results

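The genes described here are the 9 that code for the cytosolic chaperones HSP90, HSP70 and HSP101 of Arabidopsis thaliana, chosen by a fixed list of gene identifiers. All 9 were found among the 32833 genes of the count table, and all 9 passed the low-count filter. RNA of whole seedlings was sequenced from gi-2, a mutant allele of GIGANTEA (GI), with 3 libraries, and from the wild-type accession Col-0, with 3 libraries. Both genotypes were raised on 0.5x MS plates to an age of 7 d, with 8 h of light (80 µmol m-2 s-1) and 16 h of darkness per day and a constant 22 °C. Each library came from a pool of 40 to 60 seedlings frozen at ZT0, when the lights come on, and the labels name no heat treatment. The labels call the pools biological replicates and name no day or batch, so p-values measure only the spread between these pools.

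Chaperones bind proteins that are not yet folded, or have lost their fold, and keep them from aggregating. HSP70 binds short hydrophobic stretches of many proteins in a cycle driven by ATP, DNAJ proteins deliver clients to it, and exchange factors such as the BAG and FES1 proteins release ADP and client. HSP90 acts later, on near-native proteins such as receptors, kinases and F-box proteins, with HOP passing clients on from HSP70 and p23, AHA1 and FKBP-type proteins setting the pace of its cycle. HSP101, the ClpB-type disaggregase of the cytosol, pulls proteins out of aggregates and is needed for acquired thermotolerance. In Arabidopsis, HSC70-1, HSP90.2, HSP90.3 and HSP90.4 are made at normal growth temperature, whereas HSP90.1, HSP70 and HSP101 are known for strong induction by heat. GI is a clock protein that binds the F-box protein ZTL, and has been described as a co-chaperone that works with HSP90 in the maturation of ZTL.

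Transcripts of 3 of the 9 chaperone genes were lower in gi-2 than in Col-0, and 0 were higher. The genes that fell were HSC70-1, the most abundant of the set, and HSP90.2 and HSP90.3, the 2 most abundant cytosolic HSP90 genes, with log2 fold changes of -0.54, -0.46 and -0.36. HSP90.1, HSP70 and HSP101 had log2 fold changes of 0.08, -0.07 and -0.07 and did not pass the test, nor did HSC70-2, HSC70-3 and HSP90.4. A gene was called where its adjusted p was under 0.05 in edgeR's quasi-likelihood test with Benjamini-Hochberg adjustment over the 19699 genes tested. At an unadjusted p under 0.05, and with DESeq2 or limma-voom, the count of higher genes was also 0. The edgeR rule called 32.6% of all genes, 16.3% as higher in gi-2 and 16.2% as lower. For 4 of the 9 genes all gi-2 libraries lay below all Col-0 libraries, and groups that did not overlap were found for 45.3% of all genes. HSC70-1, HSP90.2 and HSP90.3 were also called lower without Col-0 replicate 1, and without it and gi-2 replicate 2 together. The median log2 fold change was -0.25 over the 9 genes and 0.00176 over all genes tested.

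Libraries held 20071825 to 23617717 counts in gi-2 and 18739317 to 20225315 counts in Col-0. Col-0 replicate 1 stood apart from the other Col-0 libraries on the second principal component (17.5% of the variance), and the values below are given with and without it where it matters. Transcript of the mutated gene GI was detected in gi-2, with a mean of 8.02 ± 0.95 CPM, against 3.11 ± 0.576 CPM for Col-0 (SD over 3 libraries each). CPM is the count scaled by library size, with TMM factors. Such a whole-gene count cannot tell whether functional protein is made. Transcripts of 5 seed genes (storage proteins and oleosins) summed to 18.9, 359 and 60.5 CPM across gi-2 replicates 1 to 3, against 1.16, 6.04 and 10.6 CPM across Col-0 replicates 1 to 3, with CRU2 at 0 in 5 of the 6 libraries. The 3 root markers summed to 2240 to 2396 CPM in gi-2 and 3474 to 3904 CPM in Col-0, and the 3 leaf markers to 58879 to 65469 CPM in gi-2 and 55425 to 60117 CPM in Col-0, with no marker at 0. All 4 tested seed genes rose, 1 root marker rose and 1 fell, and 1 leaf marker rose and 2 fell. With limma-voom the seed genes CRU3 and CRA1 did not pass (adjusted p of 0.144 and 0.0758). CRU3 and the oleosin gene OLEO1, with at most 5 and 3 counts in a Col-0 library, passed the low-count filter only through gi-2. The part of these markers in the results below was not tested. In whole seedlings, fewer cells of a type and less RNA per cell cannot be told apart.

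The HSP90 genes differ in how alike they are, which bears on how reads are assigned. HSP90.2, HSP90.3 and HSP90.4 lie close together on chromosome 5 and code for proteins of 699 residues each. Their proteins are 97.4% to 99.1% identical, whereas HSP90.1, with 700 residues, is 86.7% to 87.9% identical to them. The last 60 coding bases, stop codon included, are printed to show this, read from RefSeq TAIR10.1 on the coding strand, with capitals where a base differs from HSP90.2.
HSP90.2, chr5:22689374-22689433 (+): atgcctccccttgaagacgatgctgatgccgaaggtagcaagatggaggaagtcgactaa
HSP90.3, chr5:22683852-22683911 (+): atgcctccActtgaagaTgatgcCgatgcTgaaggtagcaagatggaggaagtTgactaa
HSP90.4, chr5:22677602-22677661 (-): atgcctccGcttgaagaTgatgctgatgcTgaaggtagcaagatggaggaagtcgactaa
HSP90.1, chr5:21355088-21355147 (+): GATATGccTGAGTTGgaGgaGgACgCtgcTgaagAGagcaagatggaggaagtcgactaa
HSP90.3 differed from HSP90.2 at 5 of these bases, HSP90.4 at 3 and HSP90.1 at 21. All 4 end in the acidic motif that docks co-chaperones with tetratricopeptide repeats, as do the 4 HSP70 proteins, while HSP101 does not. Of all stretches of 100 bases in the exons, 92.3% in HSP90.2, 88.3% in HSP90.3 and 94.1% in HSP90.4 occurred only once in the genome, counting both strands, as did 100% in each of the other 6 genes. For HSP90.2, HSP90.3 and HSP90.4 the shares were 81.1%, 75.2% and 80.5% at 50 bases, and 96.3%, 94.4% and 98.2% at 150 bases. The other 6 genes had 99.77% to 100% at 50 bases and 100% at 150 bases. How the counting treated reads that match several genes is not given in the sources used here, so the values of these 3 genes are uncertain to that extent.

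HSC70-1 (AT5G02500, chromosome 5, 553745 to 556623, minus strand, 2 coding exons) codes for the main cytosolic HSP70 of unstressed cells. It had 2160, 2244 and 2195 CPM in gi-2 and 3888, 2939 and 2771 CPM in Col-0. All 3 gi-2 libraries lay below all Col-0 libraries, and Col-0 replicate 1 was the highest. The log2 fold change was -0.54 (SE 0.11, 95% interval -0.78 to -0.31; edgeR adjusted p = 0.00163), a fold of 0.687. Without Col-0 replicate 1 it was -0.38 (edgeR adjusted p = 0.00011).

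HSC70-1 outweighed its relatives by far. Per kilobase of exon model, it averaged 861 CPM per kb in gi-2 and 1252 CPM per kb in Col-0. It made up 95.4 ± 0.172% of the summed level per kb of the 4 HSP70 genes in gi-2 and 96.3 ± 0.303% in Col-0 (SD, n = 3 each). The 9 genes together summed to 2606, 2691 and 2646 CPM in gi-2 and to 4533, 3492 and 3270 CPM in Col-0, a ratio of means of 0.703. Without HSC70-1, the other 8 genes summed to 446, 447 and 452 CPM in gi-2 and to 645, 552 and 499 CPM in Col-0. The sums did not overlap and had a ratio of means of 0.793. Both ratios include Col-0 replicate 1, which had the highest sum in each case and so lowers them. Of the 8 genes other than HSC70-1, only HSP90.2 and HSP90.3 were called, with folds of 0.725 and 0.779. HSP90.4 and HSC70-3 had folds of 0.794 and 0.840. The folds of HSP90.1, HSC70-2, HSP70 and HSP101 were 1.06, 0.964, 0.956 and 0.955.

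The 3 other HSP70 genes of the set did not pass the test. HSC70-3 (AT3G09440, chromosome 3, 2902355 to 2905947, minus strand), a second constitutive HSP70, had 85.7, 80.5 and 81.6 CPM in gi-2 and 112, 98.9 and 84.9 CPM in Col-0. The lowest Col-0 library lay between the gi-2 libraries. Its log2 fold change was -0.25 (SE 0.09, 95% interval -0.45 to -0.05; edgeR adjusted p = 0.0505), next to the threshold. It passed under 6 of 15 alternatives, with adjusted p from 0.00635 without Col-0 replicate 3 to 0.247. Gene AT3G02205 overlaps it on the same strand and AT3G09430 on the other strand. Strand could not separate reads of AT3G02205 there, and the libraries carry none that would separate those of AT3G09430.

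HSC70-2 (AT5G02490, chromosome 5, 550035 to 552827, minus strand), the neighbour of HSC70-1 with 93.9% protein identity, was far less abundant. It had 12.0, 10.3 and 10.8 CPM in gi-2 and 12.1, 12.3 and 9.96 CPM in Col-0, and the genotypes overlapped. Its log2 fold change was -0.05 (SE 0.14; edgeR adjusted p = 0.818).

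HSP70 (AT3G12580, chromosome 3, 3991117 to 3993886, minus strand), a cytosolic HSP70 that heat induces strongly, had 27.8, 34.4 and 25.7 CPM in gi-2 and 33.3, 29.3 and 29.5 CPM in Col-0. The highest and the lowest of the 6 values both came from gi-2. The log2 fold change was -0.07 (SE 0.12, 95% interval -0.31 to 0.18; edgeR adjusted p = 0.711). Of 3 further cytosolic HSP70 genes, 2 were tested and 1 rose, beside 16.3% of all genes called higher. HSP70T-1 had 0 counts in all libraries. HSP70B (AT1G16030), known in Arabidopsis as heat-inducible, rose to 10.2 ± 1.11 CPM in gi-2, against 6.30 ± 1.22 CPM in Col-0 (SD, n = 3 each; log2 fold change 0.69, SE 0.18, edgeR adjusted p = 0.00898).

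Among the cytosolic HSP90 genes, HSP90.2 (AT5G56030, chromosome 5, 22686473 to 22689671, plus strand) was the most abundant. It had 148, 157 and 163 CPM in gi-2 and 253, 204 and 187 CPM in Col-0. The genotypes did not overlap. This gave a log2 fold change of -0.46 (SE 0.10, 95% interval -0.68 to -0.25; edgeR adjusted p = 0.00239), and -0.34 without Col-0 replicate 1 (edgeR adjusted p = 0.000933).

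HSP90.3 (AT5G56010, chromosome 5, 22681238 to 22684252, plus strand) had 122, 118 and 123 CPM in gi-2 and 172, 156 and 138 CPM in Col-0, again without overlap. Its log2 fold change was -0.36 (SE 0.08, 95% interval -0.54 to -0.18; edgeR adjusted p = 0.00436), and -0.29 without Col-0 replicate 1 (edgeR adjusted p = 0.00374). HSP90.4 (AT5G56000, chromosome 5, 22677338 to 22680152, minus strand), the least abundant of these 3, had 23.45, 23.61 and 24.47 CPM in gi-2 and 38.2, 26.8 and 25.3 CPM in Col-0. Its libraries did not overlap either, but Col-0 replicate 1 lay far above the other 2 Col-0 libraries. The log2 fold change was -0.33 (SE 0.14, 95% interval -0.63 to -0.04; edgeR adjusted p = 0.0779), and -0.14 without Col-0 replicate 1 (edgeR adjusted p = 0.313).

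HSP90.1 (AT5G52640, chromosome 5, 21352557 to 21355147, plus strand) is the HSP90 gene that heat induces. It had 15.42, 15.11 and 11.76 CPM in gi-2 and 13.90, 14.04 and 12.18 CPM in Col-0. The Col-0 libraries lay within the range of the gi-2 libraries. This gave a log2 fold change of 0.08 (SE 0.14, 95% interval -0.22 to 0.38; edgeR adjusted p = 0.713).

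HSP101 (AT1G74310, chromosome 1, 27936508 to 27940369, minus strand, 5 coding exons, 911 residues) had 11.9, 9.0 and 11.1 CPM in gi-2 and 10.9, 11.1 and 11.4 CPM in Col-0. The genotypes overlapped, and the log2 fold change was -0.07 (SE 0.15, 95% interval -0.38 to 0.25; edgeR adjusted p = 0.771). HSP101 is also known from seeds. In gi-2 replicate 2, where the seed genes were highest, HSP101 had its lowest value and HSP70 its highest. A link to the seed genes was not tested. Gene AT1G74300 overlaps HSP101 on the other strand, with 42, 58 and 43 counts in gi-2 and 44, 32 and 61 counts in Col-0 beside 196 to 262 counts of HSP101 per library.

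**Figure D1:**
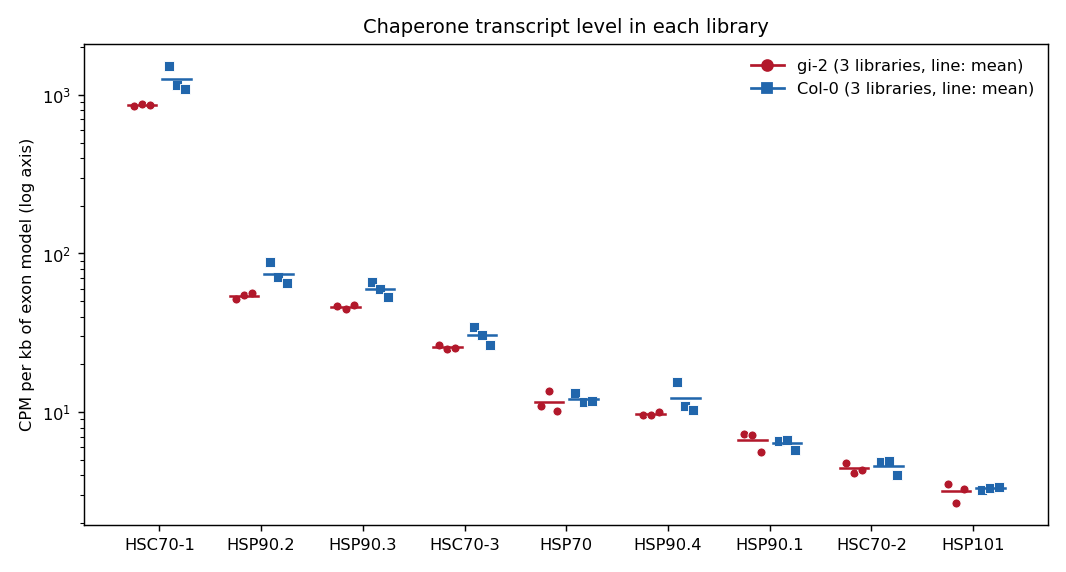
Transcript level of the 9 chaperone genes in each library, in CPM per kb of exon model on a log axis, with gi-2 as red circles and Col-0 as blue squares (3 libraries each, lines are means). HSC70-1 averaged 861 CPM per kb in gi-2 and 1252 CPM per kb in Col-0, and the gi-2 libraries of HSC70-1, HSP90.2, HSP90.3 and HSP90.4 all lie below their Col-0 libraries.

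By level per kb, the order in gi-2 was HSC70-1, HSP90.2, HSP90.3, HSC70-3, HSP70, HSP90.4, HSP90.1, HSC70-2 and HSP101. The exon model of HSP90.1, with 2103 bases, holds coding sequence alone. Those of the other genes also hold untranslated sequence, so the level of HSP90.1 is not measured on quite the same footing. HSP90.2 averaged 54.2 CPM per kb in gi-2 and 74.8 CPM per kb in Col-0, and HSP101, the lowest, averaged 3.17 CPM per kb in gi-2 and 3.31 CPM per kb in Col-0. No neighbours in this order overlapped across the gi-2 libraries. In Col-0 the order was the same except that HSP90.4, at 12.3 CPM per kb, stood just above HSP70, at 12.2 CPM per kb. The ranges of these 2 genes over the Col-0 libraries overlapped, so their order there is within the spread. The Col-0 ranges of HSP90.2 and HSP90.3 also overlapped, but HSP90.3 was the lower of the pair within each Col-0 library, with 65.9, 59.6 and 52.8 CPM per kb against 88.1, 71.0 and 65.2 CPM per kb for HSP90.2.

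**Figure D2:**
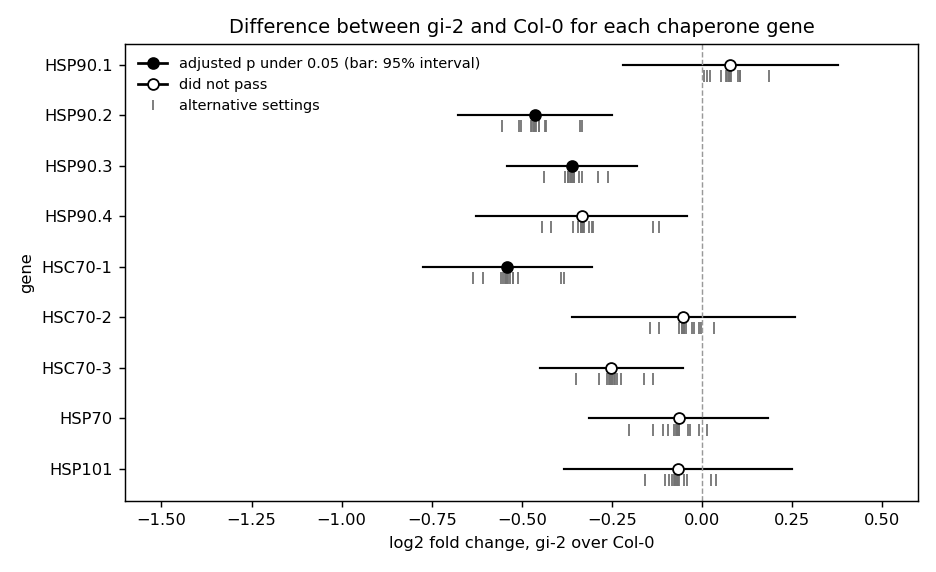
Log2 fold change (gi-2 over Col-0) of each chaperone gene, with 95% intervals as bars and filled points for an edgeR adjusted p under 0.05. Grey ticks are the values under 15 alternative settings. Those of HSC70-1, HSP90.2 and HSP90.3 all lie below 0, as do those of HSP90.4 and HSC70-3, which were not called.

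To compare the genes with each other, the ratio of 2 genes was taken within each library, for 8 pairs chosen with the results above known. The log2 ratio of HSP70 to HSC70-1 was -6.28, -6.03 and -6.42 in gi-2 and -6.87, -6.65 and -6.55 in Col-0. That of HSP90.1 to HSP90.2 was -3.26, -3.37 and -3.79 in gi-2 and -4.19, -3.86 and -3.94 in Col-0. In both pairs all gi-2 libraries lay above all Col-0 libraries, with a difference of 0.45 for HSP70 to HSC70-1 and 0.52 for HSP90.1 to HSP90.2. The exact two-sided permutation p was 0.1 for each, the smallest that 3 libraries against 3 allow, and 0.2 after Benjamini-Hochberg adjustment over the 8 ratios. So a difference in response between these genes did not pass a test, and this design could not have passed one this way. HSC70-2 and HSC70-3 to HSC70-1 also did not overlap, with differences of 0.48 and 0.28 and the same exact p. The ratios of HSP101 to HSC70-1 and to HSP90.2, and of HSP90.3 and HSP90.4 to HSP90.2, overlapped between the genotypes (exact two-sided permutation p of 0.2 for the HSP101 ratios and 0.3 for the others).

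Across the 6 libraries, log2 CPM of HSC70-1 and HSP90.2 followed each other closely (Pearson r = 0.989), as did HSP90.2 and HSP90.3 (r = 0.974). HSP90.1 and HSP90.2 had r = -0.162, and HSP70 and HSP101 had r = -0.696. These values describe 6 libraries that share genotype, and no test was made. Among all genes tested, those most like HSC70-1 were HOG1 (AT4G13940, r = 0.9993), which codes for the S-adenosylhomocysteine hydrolase of the methylation cycle, CIP8 (AT5G64920, r = 0.9983) and AT5G14520 (r = 0.9981). HSC70-3 was most like AT1G07210 (r = 0.9958), and next most like the DNAJ gene J3 (AT3G44110, r = 0.9955). The gene most like HSP90.2 was AT3G04760 (r = 0.9995), that most like HSP90.3 was AT1G17090 (r = 0.997), and that most like HSP90.4 was AT5G63410 (r = 0.9978). HSP70 was most like SAG21 (AT4G02380, r = 0.9942), a late embryogenesis abundant protein gene, HSP90.1 was most like IMPA-6 (AT1G02690, r = 0.9902), an importin alpha gene, HSC70-2 was most like AT5G23370 (r = 0.9851), and HSP101 was most like IRX6 (AT5G15630, r = 0.982). With 19699 genes and 6 libraries, values this high describe the libraries and no more.

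Heat shock factors bind heat shock elements, which are alternating triplets GAA and TTC with 2 bases between them. The 500 bases before each start codon were searched on both strands for GAANNTTC, for TTCNNGAA and for a 3-unit heat shock element (GAA, TTC and GAA, or TTC, GAA and TTC), which holds a match of each. The 3-unit element was found in 5 of the 9 genes, beside 1.22% of 27419 windows of the same length. The 6 sites are printed because they are what HSP90.1, HSC70-1, HSC70-2, HSC70-3 and HSP70 share (RefSeq TAIR10.1, 30 bases each on the gene's strand, triplets in capitals).
HSP90.1, chr5:21352254-21352283 (+): aacgaaaaGAActTTCtgGAAttcgtttgc
HSC70-1, chr5:556553-556582 (-): caaccatcGAAcaTTCtcGAAacattttaa
HSC70-2, chr5:552685-552714 (-): taattacaGAAcaTTCtgGAAactcaagtc
HSC70-3, chr3:2905893-2905922 (-): atcgaaccGAAcaTTCtcGAAcctttttaa
HSC70-3, chr3:2905764-2905793 (-): gagccatcGAAccTTCtcGAAactcgagta
HSP70, chr3:3993845-3993874 (-): ttactcgtGAAcgTTCtcGAAagctctttg
The first triplet began 295 bases before the start codon in HSP90.1, 240 in HSC70-1, 141 in HSC70-2, 282 and 153 in HSC70-3, and 177 in HSP70. In the HSC70 genes and HSP70 these positions lie downstream of the annotated gene start. Of the 3 genes that fell, HSC70-1 holds the 3-unit element, and HSP90.2 and HSP90.3 hold none in this window, nor do HSP90.4 and HSP101. The annotated gene start lies 507 bases before the start codon in HSP101 and 450 bases in HSP90.2. This window thus holds no sequence upstream of the gene start in HSP101 and only a short stretch of it in HSP90.2. HSP101 holds GAANNTTC alone, 478 bases before the start codon, a match that 21% of the windows hold. TTCNNGAA was found in 18% of the windows, and in the same 5 genes as the 3-unit element.

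Motifs of the clock and of light were searched in the same windows. The evening element AAAATATCT was in 0 of the 9 genes and 3.98% of windows. The CCA1-binding site AAAAATCT was in HSP90.3 and HSP90.4 and 13.1% of windows, and the G-box CACGTG in HSC70-1 and HSP101 and 9.22% of windows. The window before the start codon was chosen after the annotated gene starts were seen to lie 0 bases (HSP90.1) to 507 bases (HSP101) before the start codon. In windows from 250 bases before to 50 after the annotated gene start, the 3-unit element was in 2 of the 9 genes and 0.504% of 32522 windows. These 2 genes were HSC70-3 and HSP70. A match describes the sequence and is not a shown binding site.

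**Figure D3:**
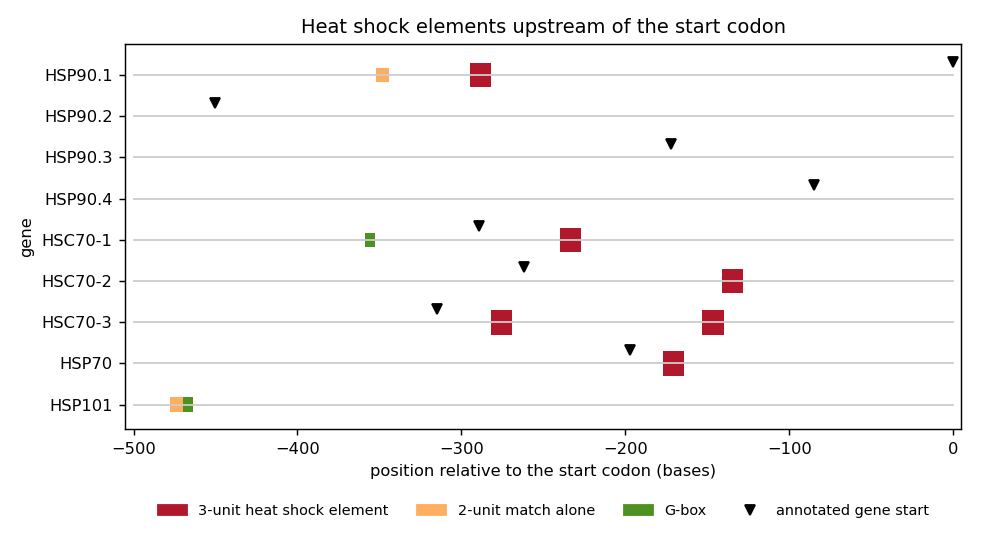
Position of 3-unit heat shock elements (red), 2-unit matches outside them (orange) and G-boxes (green) in the 500 bases before the start codon of each gene, in bases, with the annotated gene start as a triangle. The triangle of HSP101, 507 bases before the start codon, lies outside the axis, and HSP90.2, HSP90.3 and HSP90.4 hold none of the motifs drawn.

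Among the partners of HSP90, calls went in both directions. Of 13 co-chaperone genes of HSP90, 2 rose and 1 fell, beside 32.6% called over all genes, with a median log2 fold change of -0.02. AHA1-like (AT3G12050), of the family that stimulates the ATPase of HSP90, rose to 60.4 ± 1.96 CPM in gi-2, against 44.4 ± 2.17 CPM in Col-0 (SD, n = 3 each; log2 fold change 0.44, SE 0.08, edgeR adjusted p = 0.000641). ROF1 (AT3G25230), an FKBP-type protein that binds HSP90, fell to 44.5 ± 2.49 CPM in gi-2, against 65.4 ± 2.49 CPM in Col-0 (SD, n = 3 each; log2 fold change -0.56, SE 0.08, edgeR adjusted p = 0.000106). TWD1 (AT3G21640), another FKBP-type partner, also rose (log2 fold change 0.41, SE 0.12, edgeR adjusted p = 0.0155), but its call was lost without gi-2 replicate 2 and without Col-0 replicate 2. Over the alternatives 1 to 3 genes of the list rose and 1 fell. The other 10 did not pass the test.

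Of 18 co-chaperone and exchange factor genes of HSP70, 5 rose and 2 fell, beside 32.6% called over all genes, with a median of 0.15. BAG1 (AT5G52060), an exchange factor, fell to 55.8 ± 1.11 CPM in gi-2, against 86.6 ± 1.48 CPM in Col-0 (SD, n = 3 each; log2 fold change -0.63, SE 0.07, edgeR adjusted p = 1.18e-05). FES1B (AT3G53800), of the FES1 family of exchange factors, had 141, 154 and 170 counts in gi-2 and 16, 31 and 52 counts in Col-0 (log2 fold change 2.07, SE 0.31, edgeR adjusted p = 0.000153). The 3 gi-2 libraries lay far above the Col-0 libraries, which themselves differed. FES1C, BAG6, HIP1 and the DNAJ gene AT5G01390 also rose, and HSP70-15, of the HSP110 type, also fell. Over the alternatives, 3 to 5 genes of this list rose and 1 to 2 fell.

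The counterparts of these chaperones in chloroplasts, mitochondria and the endoplasmic reticulum were lower in gi-2. Of 12 such genes, 11 were tested and 11 were lower in gi-2, beside 16.2% called lower over all genes. The median log2 fold change of the 11 was -0.63, with a range of -1.50 to -0.25. HSP90.5 (AT2G04030), the chloroplast HSP90, fell to 41.5 ± 5.13 CPM in gi-2, against 118 ± 0.803 CPM in Col-0 (SD, n = 3 each; log2 fold change -1.50, SE 0.09, edgeR adjusted p = 3.16e-08). cpHSC70-2 (AT5G49910), a chloroplast HSP70, fell to 62.8 ± 3.81 CPM in gi-2, against 161 ± 12.7 CPM in Col-0 (SD, n = 3 each; log2 fold change -1.36, SE 0.08, edgeR adjusted p = 3.35e-08). Between 8 and 11 genes of this list fell under each alternative and 0 rose. Whether this list fell more than the cytosolic genes was not tested.

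Small heat shock proteins hold unfolded proteins in a form that HSP70 and HSP101 can refold. Of 18 genes in the list (17 small heat shock proteins and HSA32), 11 passed the filter, and 2 of these fell and 0 rose. Over all genes, 32.6% were called. The log2 fold change was -0.56 for HSP18.5 (AT2G19310; SE 0.11, edgeR adjusted p = 0.000869) and -0.70 for HSP15.4 (AT4G21870; SE 0.23, edgeR adjusted p = 0.0303). HSP15.4 missed the threshold without gi-2 replicate 3 and without Col-0 replicate 3, and 1 to 4 genes of the list fell over the alternatives. Counts were 0 in all 6 libraries for 3 of the genes, and the list summed to 35.3 to 38.7 CPM in gi-2 and 49.6 to 55.1 CPM in Col-0.

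Heat shock transcription factors activate or restrain these genes. Of 20 genes, 17 were tested, and 6 rose and 1 fell, beside 32.6% called over all genes, with a median of 0.19. HSFA2 (AT2G26150), a factor that heat itself induces, had 3, 5 and 2 counts in gi-2 and 0, 3 and 8 counts in Col-0 and was not tested. HSFA8 (AT1G67970) had 95, 98 and 70 counts in gi-2 and 30, 18 and 21 counts in Col-0 (log2 fold change 1.73, SE 0.31, edgeR adjusted p = 0.000684). HSFA7B (AT3G63350) had 11, 21 and 13 counts in gi-2 and 2, 0 and 0 counts in Col-0 (edgeR adjusted p = 0.00465). Both rose, and the 3 gi-2 libraries of each lay above all Col-0 libraries. HSFA7B passed the low-count filter only through gi-2, so its call is not independent of the filter. With a filter of a mean CPM of at least 1, HSFA7B was not tested and 5 factors rose. HSFA4A and HSFA7A also rose. HSFA1 factors are the master activators of the heat response in Arabidopsis, and their calls went in both directions. HSFA1B and HSFA1E rose, with log2 fold changes of 0.51 and 0.57 (edgeR adjusted p of 0.0141 and 0.0383). HSFA1D was the 1 factor of the list that fell, with a log2 fold change of -0.47 (edgeR adjusted p = 0.0388). HSFA1A did not pass, with a log2 fold change of -0.06 (edgeR adjusted p = 0.823). Under 5 of 15 alternatives 0 factors fell.

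The cytosolic chaperonin CCT, which folds actin and tubulin, had 2 of its 9 subunit genes lower in gi-2, CCT6A (AT3G02530, log2 fold change -0.22, SE 0.08, edgeR adjusted p = 0.0355) and CCT8 (AT3G03960, -0.20, SE 0.07, edgeR adjusted p = 0.0443). The share of all genes called lower was 16.2%. CCT6A missed the threshold under 8 of 15 alternatives and CCT8 under 9. Without Col-0 replicate 1, and without it and gi-2 replicate 2 together, 2 CCT genes were called higher in gi-2, against 0 with all libraries.

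Of 4 genes for F-box proteins, ZTL, its relatives LKP2 and FKF1 and the auxin receptor TIR1, 2 rose. Over all genes, 16.3% were called higher. ZTL (AT5G57360) had 1913, 2061 and 1727 counts in gi-2 and 1445, 1552 and 1417 counts in Col-0. This is a mean of 86.5 ± 0.252 CPM in gi-2, against 75.9 ± 4.22 CPM in Col-0 (SD over 3 libraries each), without overlap (log2 fold change 0.19, SE 0.07, edgeR adjusted p = 0.0671). ZTL passed under 3 of 15 alternatives, among them without Col-0 replicate 1. FKF1 (AT1G68050) had 26, 23 and 14 counts in gi-2 and 0, 0 and 0 counts in Col-0 (edgeR adjusted p = 0.000459). It passed the low-count filter only through gi-2, so its call is not independent of the filter. With a filter of a mean CPM of at least 1, FKF1 was not tested and 1 of the 4 genes rose. For TIR1 (AT3G62980) the log2 fold change was 0.22 (SE 0.07, edgeR adjusted p = 0.0329), which missed the threshold when any of the gi-2 libraries, or Col-0 replicate 2 or 3, was left out.

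**Figure D4:**
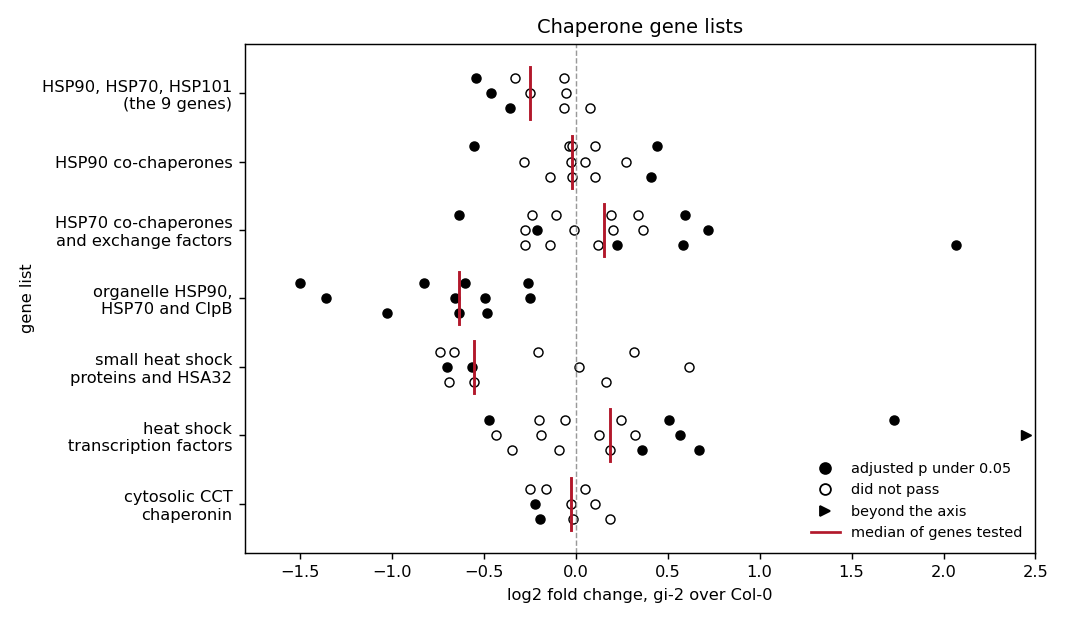
Log2 fold change (gi-2 over Col-0) of every tested gene in 7 chaperone lists, filled where the edgeR adjusted p was under 0.05, with the median of each list as a red line. All 11 tested organelle chaperone genes lie below 0, with a median of -0.63, and the fitted value of HSFA7B, with 2, 0 and 0 counts in Col-0, lies beyond the axis.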

How the data were processed

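Values are unscaled read counts, as deposited by the authors, with 1 column per library. The submitters' processing notes name STAR 2.5.5 and HTSeq 0.6.1 as tools, besides DESeq2, and TAIR10 as the build, and libraries were not directional, per the labels' protocols. No source used here gives the settings for strand and multi-mapping reads. Counts of 32833 genes (8687 without a count) were fitted with edgeR 4.0.16 in R 4.3.3 (TMM, filterByExpr with minimum count 10 and minimum total 15, quasi-likelihood test on genotype alone). The SE is the one implied by F. The script was tested on simulated data. Gene starts and ends of the 9 genes were identical in RefSeq TAIR10.1, which gave sequences. Proteins were aligned globally with Biopython 1.88. Replicates differed by more than sampling noise (chi-square per degree of freedom 4.85 to 15.1). Correlations used log2 CPM with a prior count of 2. The members, lists, tests and alternatives were chosen with earlier results of these data known. Named genes were the 9 members, GI, ZTL, HSFA2, up to 2 called genes with the smallest adjusted p per list, and the 3 genes most correlated with each member, of which the first is printed, for HSC70-1 all 3 and for HSC70-3 also the second, J3. TWD1, J3, HSFA1A, OLEO1 and the further called genes of the lists for HSP70 partners and heat shock factors were named after their values were seen. Alternatives were RLE, upper-quartile and library-total scaling, 2 other filters, DESeq2 1.42.0, limma-voom (limma 3.58.1), a replicate block, and leaving out libraries.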

Additional observations from a re-analysis of the deposited data

How the results depend on the processing

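Of 15 alternatives, HSC70-1, HSP90.2 and HSP90.3 were called lower under each, with log2 fold changes of -0.64 to -0.38, -0.55 to -0.33 and -0.44 to -0.26. The number of the 9 genes called lower was 5 with no low-count filter, when HSC70-3 and HSP90.4 also passed, and 3 to 5 when 1 library was left out. Without Col-0 replicate 3 it was 5. The number called higher was 0 under each alternative. Signs turned only where no call was made. HSC70-2 was at 0.032 and HSP101 at 0.024 without both gi-2 replicate 2 and Col-0 replicate 1. HSP101 ranged from -0.16 to 0.039, and HSP70 from -0.20 to 0.012, with 1 library left out. The cause was not tested.

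Deviations of libraries with the same replicate number correlated at 0.00207 to 0.0156, and those with unlike numbers at -0.0188 to 0.00417. With 3 libraries a genotype, such values cannot show whether libraries with the same number shared a batch. With the replicate block, 4 of the 9 genes were lower (HSC70-3 joined), HSP15.4 missed the threshold (adjusted p = 0.0527), and 3123 genes were higher and 3038 lower over all. Scaling to library totals gave 3411 genes higher and 2939 lower, 53.7% higher among those called. The design has 3 libraries a genotype, and low counts such as those of HSFA2 limit what could be detected.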
